A study of Mus musculus with 6 samples.

Results

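The oxidative phosphorylation subunit genes are the nuclear genes whose proteins make up the respiratory chain and the ATP synthase of the inner mitochondrial membrane. Membership went by gene symbol, in a set chosen with earlier results of these data known. It took the Nduf genes of complex I, the Sdh genes of complex II, and the Uqcr genes and Cyc1 of complex III. It also took the Cox4 to Cox8 genes of complex IV, the Atp5 genes of complex V, and Cycs, the mobile carrier cytochrome c. This gave 86 of the 19505 genes on the array, of which 37 belong to complex I, 4 to complex II, 9 to complex III, 18 to complex IV and 17 to complex V, with Cycs alone. All 86 had 1 probe set each.

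Submandibular salivary glands (SG) of female BALB/c mice were profiled on Clariom S mouse arrays, with 3 mice that had bilateral ovariectomy (OVX) and 3 that had sham surgery (Cont), and 1 array per mouse. The mice were operated on when 6 weeks old and their SG was collected after a further 8 weeks, when they were 14 weeks old. Both groups thus shared strain, sex, age, an operation and the interval after it, and differed in the removal of the ovaries, the main source of circulating oestrogen. Values are log2 intensities, so a log2 change of OVX minus Cont is a log2 ratio of the groups, and levels of different probe sets are not compared with each other.

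Complexes I to IV pass electrons from NADH and succinate to oxygen, complexes I, III and IV pump protons as they do so, and complex V uses the proton gradient to make ATP. Salivary fluid and electrolyte transport consumes much ATP, and the striated duct cells of the gland are known for densely packed mitochondria along their basal membrane. The subunits encoded by the mitochondrial genome itself are not analysed here, since 0 of the 26 mitochondrially encoded genes looked for were among the named probe sets.

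The labelled tissue was checked against its markers. The mean log2 intensity of 13 acinar genes was 9.16 to 9.40 on the Cont arrays and 8.92 to 9.08 on the OVX arrays, and that of 7 granular convoluted tubule genes was 9.63 to 10.5 and 12.3 to 12.4. Median intensities of the 6 arrays lay between 5.20 and 5.22. Of the 19505 genes, 709 passed an adjusted p under 0.05 by limma, 501 higher and 208 lower in OVX. Several marker lists differed between the groups, where 2.57% of all genes were higher and 1.07% lower by limma. Of the 7 granular convoluted tubule genes 6 were higher and 0 lower, with a median log2 change of 2.14. The acinar genes went both ways, with 4 of 13 lower and 1, Amy1, higher, and a median log2 change of -0.45. The mean level of 9 myoepithelial and smooth muscle genes was 6.40 to 6.57 in Cont and 7.71 to 7.83 in OVX, with 7 of 9 higher by limma. That of 6 fibroblast genes was 6.20 to 6.76 and 7.40 to 7.49, with 4 of 6 higher, and that of 11 duct genes was 6.77 to 6.90 and 7.48 to 7.55, with 5 of 11 higher. Their part in the values given below was not tested. In whole glands, fewer cells of a type and less RNA per cell cannot be told apart.

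No subunit gene passed the adjusted p. The count was 0 of 86 by limma with Benjamini-Hochberg adjustment, where 3.63% of all genes passed, 2.57% higher and 1.07% lower in OVX. At an unadjusted p under 0.05 by limma, 1 subunit gene was higher, against 8.24% of all genes, and 3 were lower, against 7.59%. The t-test named in the methods gave 1 higher and 3 lower before adjustment, against 7.25% and 6.38% of all genes, and 0 after it, where 0.405% of all genes passed. Its Welch form gave 0 higher and 3 lower, against 5.91% and 4.92%, and 0 after adjustment, against 0.0359%. A count of 0 after adjustment by either t-test is thus near the share over all genes. No subunit gene reached a 1.5-fold change with an unadjusted p of at most 0.05, a rule met by 4.99% of all genes.

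The changes lay on both sides of 0. Of the 86 genes, 43 had a positive and 43 a negative log2 change, from -0.44 to 0.39, with quartiles at -0.11 and 0.11, while all genes had quartiles at -0.17 and 0.14. The median size of the log2 change regardless of sign was 0.107 for the subunit genes and 0.158 for all genes, with a median standard error of 0.15 for both. A log2 change under 0.2 in size was found for 70 subunit genes, or 81.4%, and for 60.4% of all genes.

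A missed threshold does not show equality, so the interval of each change was examined, a measure chosen after the data were seen. The 95% interval from limma, given for each gene by itself, stayed within 1.5-fold in either direction for 74 of 86 subunit genes, against 64.5% of all genes. It stayed within 2-fold for 86 of 86, against 95.4% of all genes. A change larger than 2-fold was thus outside the interval of every subunit gene, while a change of 1.5-fold was inside the interval of 12. These intervals bound array values, and for a dim probe set such as that of Cox7b2 they may not bound the transcript.

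**Figure D1:**
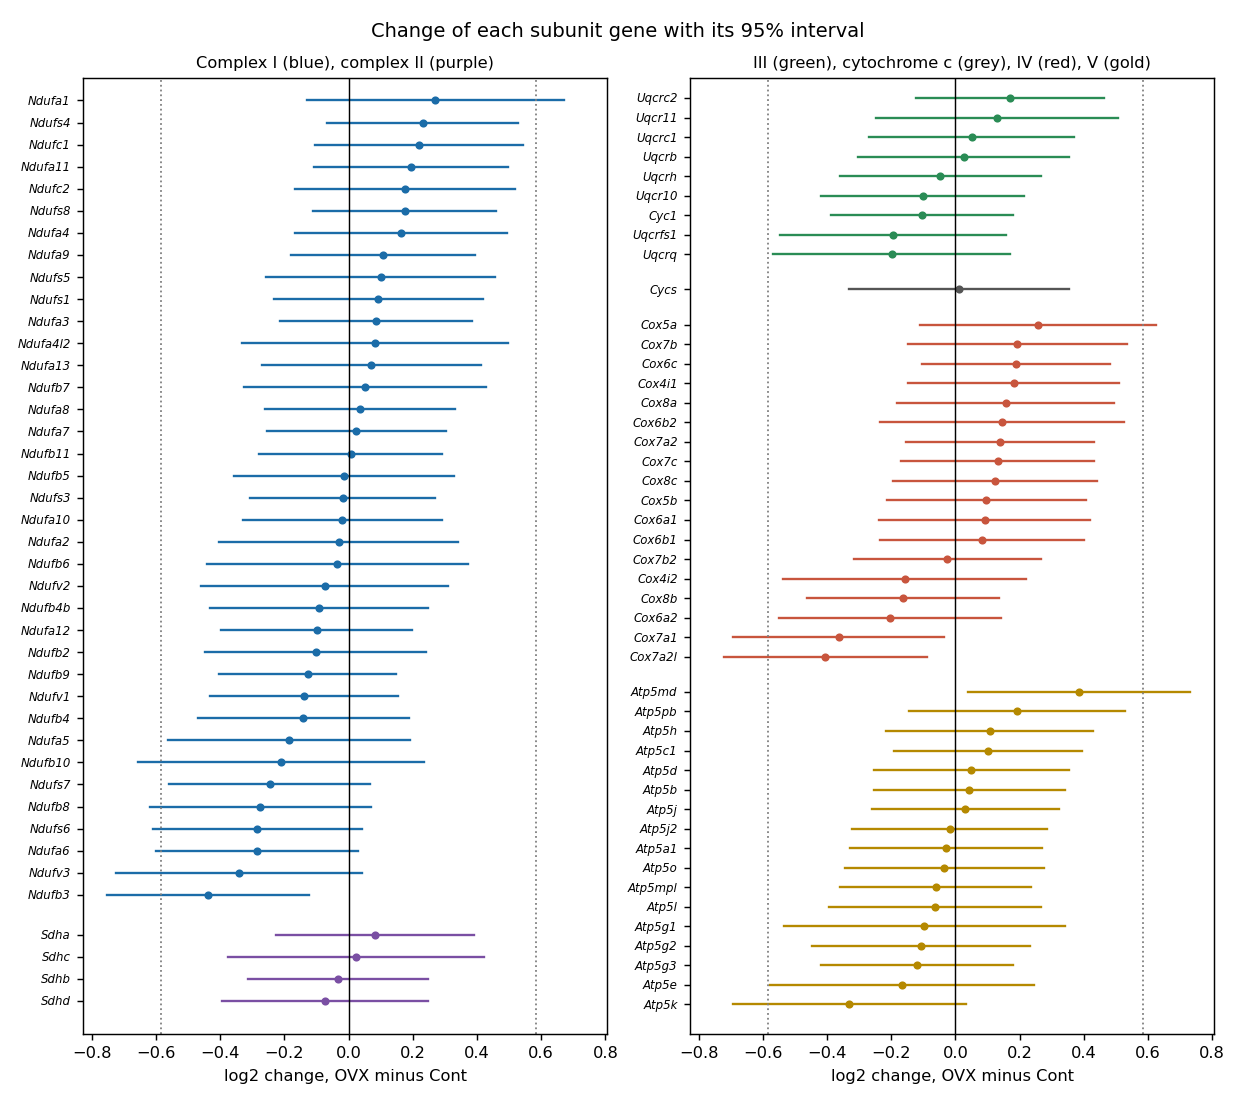
Log2 change of each of the 86 subunit genes, OVX minus Cont, with its 95% interval from limma (3 arrays per group), grouped by complex in colour. The dotted lines mark 1.5-fold in either direction. Points lie on both sides of 0 in complexes I to V, and 12 intervals cross a dotted line.

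In 8 subunit genes every OVX array lay above every Cont array, a pattern found in 10.7% of all genes. In 7 every OVX array lay below every Cont array, against 10.6% of all genes. Both shares, 9.3% and 8.14% of the subunit genes, were near those of all genes. The 8 were Ndufa9, Ndufa11, Ndufs4, Ndufs8, Cox5a, Cox6c, Cox7a2 and Atp5md, and the 7 were Ndufa6, Ndufb3, Ndufb9, Ndufs6, Cyc1, Cox7a1 and Cox7a2l.

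The files carry no detection calls, so a dim probe set cannot be told from an absent transcript. This applies most to Cox7b2, a testis isoform of complex IV, with 2.58, 2.62 and 2.48 in Cont and 2.66, 2.48 and 2.47 in OVX. The alternative that dropped the dimmest 30% of probe sets kept 85 of the 86 subunit genes.

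Complex I takes electrons from NADH. Its 37 genes had a median log2 change of -0.02, with 17 above and 20 below 0, and 0 passed the adjusted p by limma. Ndufb3 encodes an accessory subunit of the membrane arm. Its log2 intensities were 6.27, 6.53 and 6.23 in Cont and 5.77, 5.94 and 6.002 in OVX. All OVX values were below all Cont values. The log2 change was -0.44 (SE 0.14, 95% interval -0.75 to -0.12), or 1.35-fold lower, with an adjusted p of 0.149 by limma, the smallest among the 86 genes.

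Ndufs4, an accessory subunit known from a mouse model of Leigh syndrome, measured 6.92, 6.85 and 7.13 in Cont and 7.22, 7.22 and 7.15 in OVX. The groups did not overlap, although Cont 3 and OVX 3 were close, and the log2 change was 0.23 (SE 0.14, limma adjusted p 0.455). Ndufa6, another accessory subunit, read 7.15, 7.40 and 7.22 in Cont and 6.96, 7.14 and 6.83 in OVX. OVX 2 came within a narrow margin of Cont 1, and the log2 change was -0.28 (SE 0.14, limma adjusted p 0.375).

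Ndufv3, which belongs to the flavoprotein part of the peripheral arm, was 5.12, 5.59 and 5.60 in Cont and 4.98, 5.35 and 4.97 in OVX. OVX 2 exceeded Cont 1, so the groups overlapped, and the log2 change of -0.34 had an interval of -0.72 to 0.04. Ndufa1, an X-linked membrane arm subunit, was 6.91, 6.27 and 6.91 in Cont and 6.89, 6.97 and 7.05 in OVX. Its positive change of 0.27 on the log2 scale (interval -0.13 to 0.67) rested mainly on the low Cont 2 array. Ndufc1, a small accessory subunit, read 8.53, 8.44 and 8.68 in Cont and 8.73, 8.60 and 8.97 in OVX, with overlap of Cont 3 and OVX 2 and a log2 change of 0.22 (interval -0.10 to 0.54).

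The core subunits carry the flavin and the iron-sulfur clusters. Ndufs1 had a log2 change of 0.09 (interval -0.23 to 0.42), Ndufv1 of -0.14 (-0.43 to 0.15), Ndufv2 of -0.07 (-0.46 to 0.31) and Ndufs7 of -0.25 (-0.56 to 0.07). Ndufs8, which holds a pair of clusters, read 8.08, 7.97 and 8.14 in Cont and 8.20, 8.25 and 8.26 in OVX. Its groups did not overlap, with a log2 change of 0.17 and an adjusted p of 0.57 by limma.

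Ndufb9 shows how the tests differ. This accessory subunit of the membrane arm was 9.59, 9.55 and 9.57 in Cont and 9.44, 9.45 and 9.44 in OVX, values that hardly varied within a group. The log2 change was -0.13, with an unadjusted p of 0.33 by limma, which moderates each gene's spread toward that of the other genes. The methods' t-test, fitted over all genes on each gene's own spread alone, gave an unadjusted p of 0.000542 and an adjusted p of 0.067. Ndufb4 and Ndufb4b, near-identical copies whose probes may share transcripts, had log2 changes of -0.14 and -0.09 and are uncertain as separate genes.

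Complex II, succinate dehydrogenase, also belongs to the TCA cycle. Its 4 genes had log2 changes between -0.07 and 0.08, and 4 of 4 intervals stayed within 1.5-fold. Sdha, the flavoprotein, read 7.04, 7.24 and 7.12 in Cont and 7.38, 7.09 and 7.17 in OVX, with a log2 change of 0.08 (interval -0.22 to 0.39). Sdhb, the iron-sulfur subunit, read 8.79, 8.81 and 8.91 in Cont and 8.78, 8.85 and 8.77 in OVX, with a log2 change of -0.03 (interval -0.31 to 0.25). The groups overlapped in both genes, and Sdhd, a membrane anchor, had a log2 change of -0.07 (interval -0.39 to 0.25).

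Complex III passes electrons from ubiquinol to cytochrome c. Its 9 genes had a median log2 change of -0.05, from -0.20 to 0.17, and 9 of 9 intervals stayed within 1.5-fold. Uqcrc2, a core protein, was 7.33, 7.22 and 7.14 in Cont and 7.47, 7.30 and 7.44 in OVX. Only OVX 2 fell inside the Cont range, and the log2 change was 0.17 (interval -0.12 to 0.46). Uqcrfs1, the Rieske iron-sulfur protein, was 8.14, 7.92 and 8.33 in Cont and 7.99, 8.11 and 7.71 in OVX, with a log2 change of -0.19 (interval -0.55 to 0.16). Cyc1, cytochrome c1, read 6.43, 6.41 and 6.53 in Cont and 6.38, 6.27 and 6.41 in OVX. Its groups were separated only in the next decimal place, and the log2 change was -0.10 (interval -0.39 to 0.18).

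Cycs read 9.12, 8.84 and 9.33 in Cont and 9.20, 8.98 and 9.13 in OVX. The OVX values lay inside the Cont range, with a log2 change of 0.01 (interval -0.33 to 0.35).

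Complex IV, cytochrome c oxidase, reduces oxygen. Its 18 genes had a median log2 change of 0.11, with 12 above and 6 below 0, and 0 passed the adjusted p by limma. Of the 6 below 0, Cox7a1, Cox6a2 and Cox8b are isoforms of heart and skeletal muscle, and Cox4i2 is best known from lung and low oxygen. Cox7b2 is a testis isoform, and Cox7a2l has been linked to supercomplexes. The other testis isoforms, Cox6b2 and Cox8c, had log2 changes of 0.15 and 0.12. The protein of Cox7a2l has been linked to the joining of complexes III and IV, and whether it does so in this strain was not examined. Its transcript was 8.11, 8.33 and 8.11 in Cont and 7.61, 7.94 and 7.78 in OVX. All OVX values were lower than all Cont values. The log2 change was -0.41 (SE 0.14, interval -0.72 to -0.09), or 1.33-fold lower, with an adjusted p of 0.184 by limma.

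Cox7a1, the isoform of heart, skeletal muscle and brown fat, read 6.19, 6.60 and 6.27 in Cont and 6.08, 5.98 and 5.91 in OVX. The groups did not overlap, and Cont 2 stood highest. Its log2 change was -0.36 (SE 0.15, interval -0.69 to -0.04), with an adjusted p of 0.259 by limma. Beside it, the mean log2 intensity of 16 skeletal muscle markers was 4.54 to 4.58 in Cont and 4.45 to 4.54 in OVX. For 7 brown adipocyte markers, a list that holds Cox8b, it was 4.38 to 4.64 in Cont and 4.23 to 4.38 in OVX. For 8 white adipocyte markers it was 5.41 to 5.88 and 4.69 to 5.39. The ranges of the groups just overlapped for the muscle and brown adipocyte lists and were apart for the white adipocyte list. In these lists 0 genes passed the adjusted p by limma, where 3.63% of all genes did. At an unadjusted p under 0.05 by limma, 1, 0 and 3 were lower, against 7.59% of all genes. By the methods' t-test 0 reached it, and the part of these lists in the Cox7a1 value was not tested. The myoepithelial and smooth muscle markers were higher in OVX, as given above, and their part in the Cox7a1 value was not tested either.

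Cox5a, which with Cox4i1 lies next to the catalytic core, was 8.26, 7.74 and 8.31 in Cont and 8.35, 8.42 and 8.31 in OVX. The single low value was that of Cont 2, while OVX 3 and Cont 3 nearly coincided. The log2 change was 0.26 (interval -0.11 to 0.63). Cox7b, Cox6c and Cox4i1 had log2 changes of 0.19, 0.19 and 0.18, with limma adjusted p of 0.607, 0.547 and 0.611.

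**Figure D2:**
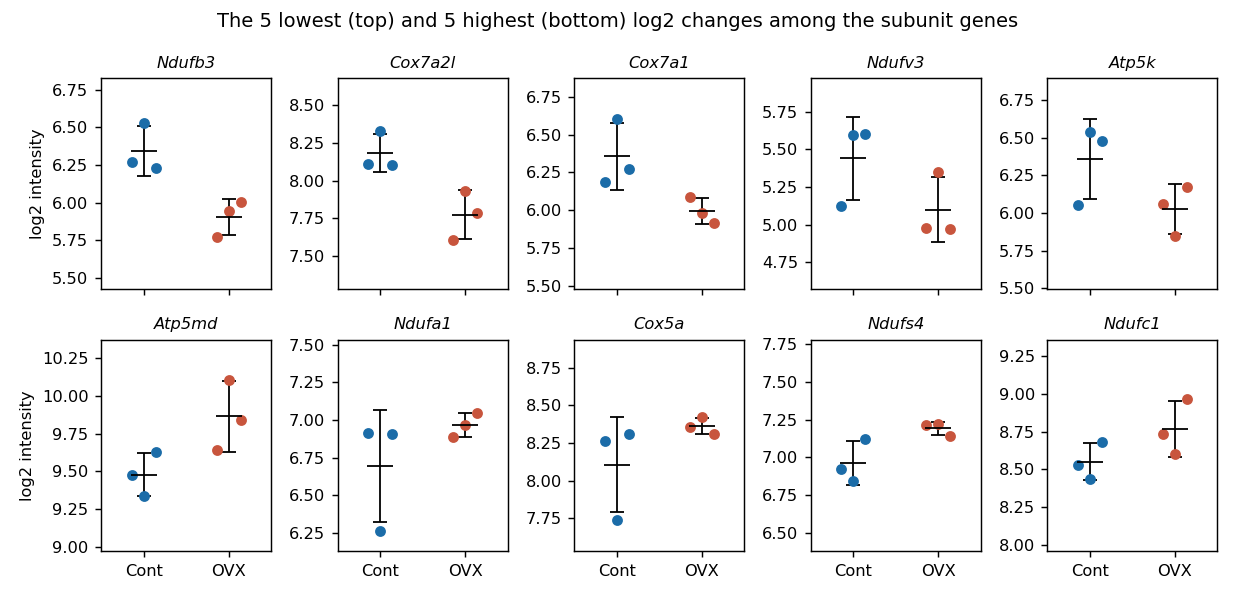
Log2 intensity of the 10 subunit genes with the most negative (top row) and most positive (bottom row) log2 change, for 3 Cont and 3 OVX arrays. Points are arrays, the long bars are group means and the error bars are SD. Groups overlap in Ndufv3, Atp5k, Ndufa1 and Ndufc1.

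Complex V makes ATP. Its 17 genes had a median log2 change of -0.03, with 7 above and 10 below 0. The catalytic subunit Atp5b read 10.99, 10.79 and 10.98 in Cont and 11.07, 10.89 and 10.93 in OVX. The values overlapped, with a log2 change of 0.04 (interval -0.25 to 0.34), and its partner Atp5a1 had a log2 change of -0.03 (interval -0.33 to 0.27). Atp5md encodes DAPIT, a small membrane subunit at the dimer interface. It was 9.47, 9.34 and 9.63 in Cont and 9.64, 10.11 and 9.84 in OVX. All OVX values lay above all Cont values, but OVX 1 and Cont 3 nearly met. The log2 change of 0.39 (SE 0.16, interval 0.04 to 0.73), or 1.31-fold, was the most positive of the 86 and had an adjusted p of 0.255 by limma.

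Atp5k, subunit e, also sits at the dimer interface. Its values were 6.05, 6.54 and 6.48 in Cont and 6.06, 5.85 and 6.17 in OVX, with a low Cont 1 inside the OVX range and a log2 change of -0.33 (interval -0.69 to 0.03). Atp5md and Atp5k thus had changes of opposite sign, neither past the adjusted p. Atp5pb, the stator subunit b, read 8.47, 8.32 and 8.74 in Cont and 8.86, 8.63 and 8.62 in OVX, with overlap and a log2 change of 0.19 (interval -0.14 to 0.53).

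Several subunits are encoded by alternative genes, and their balance can be followed within an array as a log2 ratio. In 8 such pairs, the ratio was compared between 3 and 3 arrays by an exact permutation test, two-sided, for which 0.1 is the smallest p possible. For Cox7a1 over Cox7a2, the muscle over the general isoform, the ratio relative to the Cont mean was -0.22, 0.40 and -0.17 in Cont and -0.40, -0.51 and -0.60 in OVX. The groups did not overlap, and Cont 2 stood apart within Cont. The mean difference in log2 ratio, OVX minus Cont, was -0.50 (SD 0.34 in Cont and 0.10 in OVX, 3 arrays each, exact permutation p = 0.1, 0.6 adjusted over the 8 pairs). Without Cont 2 it was -0.30, and without any other array it was -0.46 to -0.61. For Cox7a2 itself, the values were 8.06, 7.86 and 8.10 in Cont and 8.13, 8.14 and 8.16 in OVX, a log2 change of 0.14 (interval -0.15 to 0.43).

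The other pairs overlapped between the groups. The muscle over general ratios Cox6a2 over Cox6a1 and Cox8b over Cox8a had log2 differences of -0.29 and -0.32, and Cox4i2 over Cox4i1, an isoform linked to hypoxia over the general one, of -0.34 (exact permutation p = 0.3 for each, 0.6 adjusted). These rested in part on single arrays. Without OVX 3 the difference was -0.11 for Cox6a2 over Cox6a1 and -0.16 for Cox8b over Cox8a, and for Cox4i2 over Cox4i1 it was -0.19 without OVX 1 and -0.54 without OVX 3. Cox6b2 over Cox6b1 differed by 0.06 and Ndufa4l2 over Ndufa4 by -0.08 (exact permutation p = 0.7 for each). Ndufa4 was counted with complex I by its symbol, although its protein is now placed in complex IV. Atp5g1, Atp5g2 and Atp5g3 encode the same mature protein of the proton-carrying c-ring. Their own log2 changes were -0.10, -0.11 and -0.12, and the ratios Atp5g2 over Atp5g1 and Atp5g3 over Atp5g1 differed by -0.01 and -0.02. The ratios of Cox6b2, Ndufa4l2, Atp5g2 and Atp5g3 changed sign when 1 array or another was left out.

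**Figure D3:**
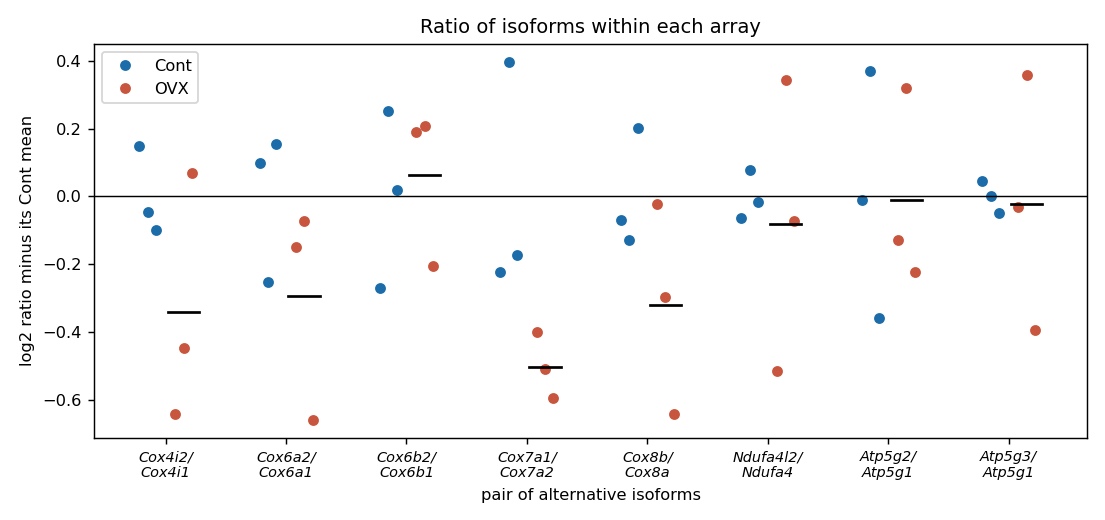
Log2 ratio of 8 pairs of alternative subunit genes on each array, relative to its Cont mean, for 3 Cont (blue) and 3 OVX (red) arrays. Black bars are OVX means and 0 is the Cont mean. The groups separate in Cox7a1 over Cox7a2, where the mean difference is -0.50, and overlap in the other 7 pairs.

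The subunit genes differed together between mice of the same group. Cont 3 was the highest of the Cont arrays in 61 of 86 subunit genes, or 70.9%, against 35.0% of all genes. Cont 2 was the lowest in 51, or 59.3%, against 32.7% of all genes. Among the OVX arrays, OVX 1, OVX 2 and OVX 3 were highest in 22, 35 and 29 subunit genes, against 32.3%, 34.8% and 32.9% of all genes. The spread within Cont was thus shared over many subunit genes, and that within OVX was more evenly divided.

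The median log2 value of the 86 genes relative to the Cont mean was -0.04, -0.09 and 0.13 in Cont and -0.05, 0.02 and 0.01 in OVX, while over all genes the same median stayed between -0.02 and 0.01. All OVX medians lay inside the Cont range. A low Cont 2 and a high Cont 3 were not particular to the subunit genes. Their medians were -0.14 and 0.11 for 19 TCA cycle and pyruvate dehydrogenase genes and -0.48 and 0.41 for granular convoluted tubule genes. For 47 assembly factors they were -0.01 and 0.04, and for 8 antioxidant genes -0.05 and 0.08. Other lists shared this in part. For mitochondrial ribosomal protein genes Cont 3 was highest at 0.07, with Cont 1 lowest at -0.06. For mitochondrial membranes, carriers and import Cont 2 was lowest at -0.04, with Cont 1 highest at 0.02. For 7 other respiratory chain genes Cont 2 was highest at 0.06 and Cont 3 lowest at -0.02. By complex, Cont 3 gave the highest Cont median in each of complexes I to V, at 0.14, 0.13, 0.16, 0.10 and 0.12. Cycs spanned -0.26 in Cont 2 to 0.23 in Cont 3. In complex IV the OVX medians were -0.02, 0.07 and 0.14, and OVX 3 exceeded Cont 3, while in complex III they were -0.08, -0.02 and -0.05.

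**Figure D4:**
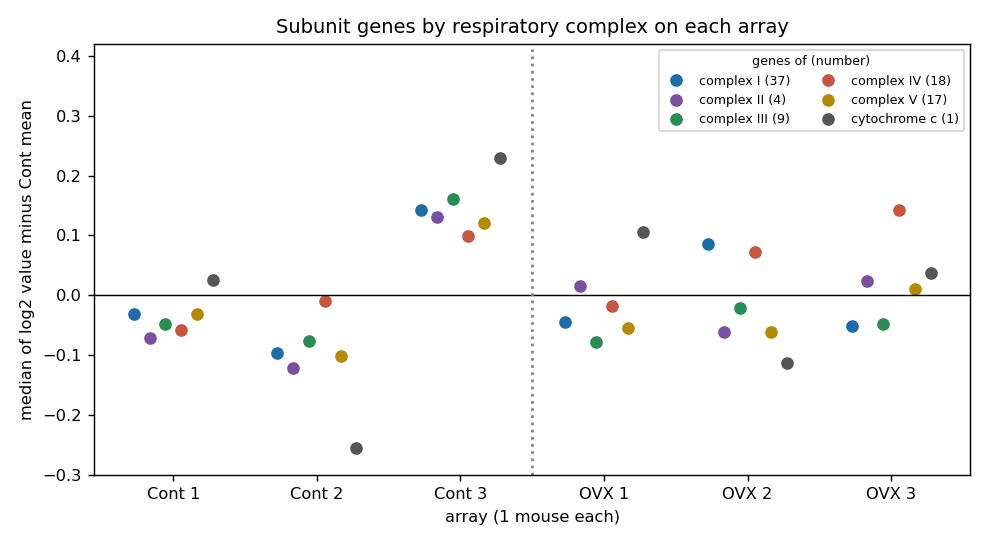
Median over the genes of each complex of log2 intensity minus the Cont mean, for each of 6 arrays. Points are complexes I to V and cytochrome c, with the number of genes in the legend. Cont 3 lies above 0 for each of them, and the medians of the OVX arrays lie between -0.11 and 0.14.

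Genes that serve the respiratory chain without being subunits were taken from lists written from general knowledge, with earlier results of these data known. For comparison, 3.63% of all genes passed the adjusted p by limma, and 8.24% were higher and 7.59% lower unadjusted. The methods' t-test gave 7.25% of all genes higher and 6.38% lower before adjustment. Of 47 assembly factors, which insert cofactors and put the complexes together, 0 passed the adjusted p by limma, with 1 higher and 1 lower at an unadjusted p under 0.05, 5 by the methods' t-test, and a median log2 change of 0.01. The pair was Cox17, a copper chaperone of complex IV, with a log2 change of 0.42 and an adjusted p of 0.198, and Ecsit, a complex I assembly protein, with -0.34 and 0.237. Of 31 genes for mitochondrial membranes, carriers and import, 0 passed by limma, with 3 higher and 3 lower unadjusted and 6 by the methods' t-test. The genes with the smallest p had changes of either sign. Slc25a12, an aspartate-glutamate carrier, had a log2 change of 0.61 and an adjusted p of 0.0567, Hspa9, a chaperone of protein import, of -0.52 and 0.0832, and Slc25a4, an ADP/ATP carrier best known from heart and skeletal muscle, of 0.52 and 0.0865. The more widely expressed ADP/ATP carrier Slc25a5 had a log2 change of 0.07.

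Enzymes that feed electrons or fuel to the chain held a few calls. Gpd2, the mitochondrial glycerol-3-phosphate dehydrogenase that reduces ubiquinone directly, rose in OVX. It read 6.09, 6.10 and 5.94 in Cont and 6.74, 6.75 and 6.91 in OVX, with no overlap and a log2 change of 0.76 (SE 0.13, limma adjusted p 0.00907). It was the only call among 7 other respiratory chain genes, and Etfa, which passes electrons from fatty acid oxidation, had a log2 change of -0.50 with an adjusted p of 0.0727. Without OVX 3 the adjusted p of Gpd2 was 0.0507.

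Ogdh, a subunit of the 2-oxoglutarate dehydrogenase complex of the TCA cycle, rose as well. Its values were 9.004, 8.87 and 9.15 in Cont and 9.79, 9.70 and 9.81 in OVX. All OVX values exceeded all Cont values, by a mean log2 change of 0.76 (SE 0.14, limma adjusted p 0.00965). It was the only call among 19 TCA cycle and pyruvate dehydrogenase genes, whose median log2 change was -0.07. Of 22 glycolysis and lactate genes, with a median log2 change of 0.12, Pfkm and Pdk3 rose and 0 fell. Pfkm, the muscle-type phosphofructokinase, had a log2 change of 0.72 (adjusted p 0.0162), and Pdk3, a kinase that inhibits pyruvate dehydrogenase, of 0.67 (adjusted p 0.0215), both by limma. The myoepithelial and smooth muscle markers given above also had higher levels in OVX. The 16 skeletal muscle markers had a median log2 change of -0.15, with 0 higher and 0 lower by limma after adjustment. The part of either list in the values of the muscle-type genes Pfkm and Slc25a4 was not tested. Pfkm kept its call in 3 of 6 fits that left out 1 array, with 0.0590 without Cont 1, 0.0729 without OVX 1 and 0.0791 without OVX 3. Pdk3 kept it in 2 of 6, with 0.0831 without Cont 2, 0.0565 without Cont 3, 0.0993 without OVX 1 and 0.0762 without OVX 2. By the methods' t-test after adjustment 0 of Gpd2, Ogdh, Pfkm and Pdk3 passed.

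Among 20 regulators of mitochondrial biogenesis 1 passed. Esrrg, the oestrogen-related receptor gamma, an orphan nuclear receptor that binds genes of oxidative metabolism and is not activated by oestrogen, rose in OVX. It was 8.00, 7.51 and 7.55 in Cont and 9.004, 9.01 and 9.20 in OVX. The groups were far apart, with a log2 change of 1.38 (SE 0.16, interval 1.03 to 1.74), or 2.61-fold, and an adjusted p of 0.000557 by limma. It passed in 6 of 6 fits that left out 1 array and did not pass by the methods' t-test after adjustment.

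The coactivator Ppargc1a read 8.81, 8.68 and 8.46 in Cont and 8.53, 8.08 and 8.25 in OVX. OVX 1 lay inside the Cont range, and the log2 change was -0.36 with an adjusted p of 0.305 by limma. Nrf1, Gabpa and Tfam, which drive transcription of nuclear and mitochondrial respiratory genes, had log2 changes of -0.08, 0.11 and -0.07 with adjusted p of 0.831, 0.76 and 0.91. Of 8 genes listed as mitochondrial antioxidants, not all of them confined to mitochondria, Gpx1, a glutathione peroxidase, rose by 0.78 on the log2 scale. It went from 9.48, 9.44 and 9.68 in Cont to 10.19, 10.44 and 10.32 in OVX. Its adjusted p was 0.00965 by limma, and it did not pass by the methods' t-test after adjustment. Of the uncoupling proteins, 2 were measured and 0 passed by limma (1 lower at an unadjusted p under 0.05 and 0 by the methods' t-test).

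The ribosomal proteins served as a comparison of other large assemblies. Of 76 mitochondrial ribosomal protein genes 0 passed, and the median log2 change was -0.06. Unadjusted, 0 were higher and 7 lower by limma, against 8.24% and 7.59% of all genes. The methods' t-test gave 6 in either direction, against 7.25% of all genes higher and 6.38% lower. Of 54 cytosolic ribosomal protein genes 16 were lower and 0 higher after adjustment, against 1.07% and 2.57% of all genes. Their median log2 change was -0.50, against -0.00 for the oxidative phosphorylation subunits and -0.02 for all genes. The difference between the lists was not tested.

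**Figure D5:**
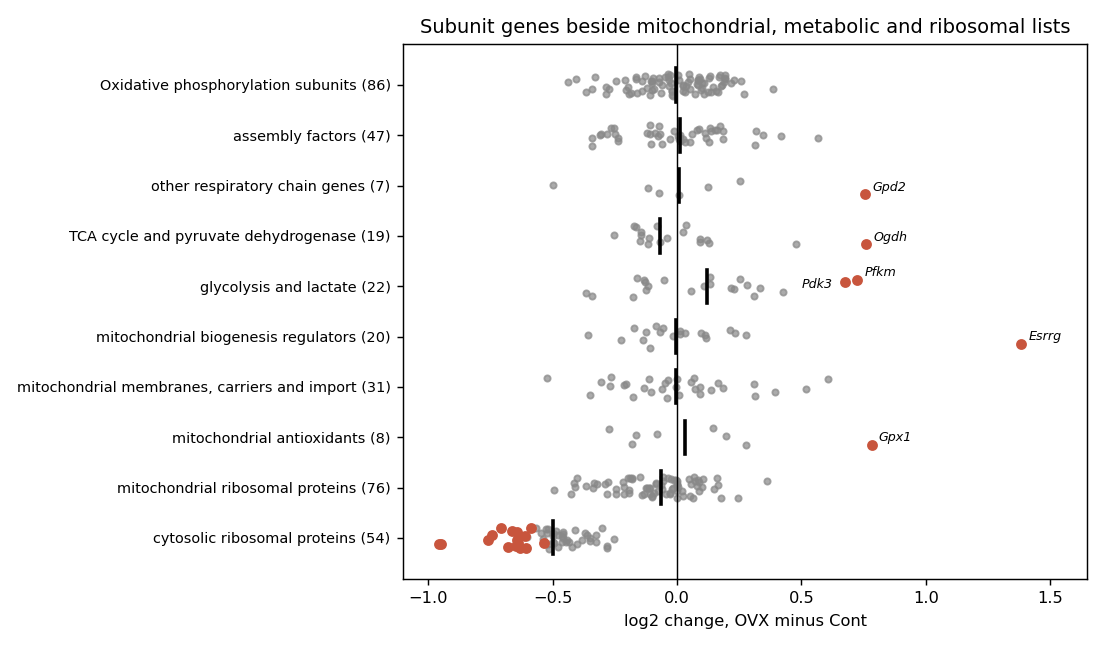
Log2 change, OVX minus Cont, of the 86 subunit genes and of other mitochondrial, metabolic and cytosolic ribosomal protein lists, 1 point per gene, with the number of genes in parentheses. Black bars are list medians and larger red points passed the adjusted p by limma. No subunit gene is red, 16 of the red points are cytosolic ribosomal protein genes, and Esrrg lies at 1.38.

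Because Esrrg was higher while the subunit genes held no call, promoters were read for the letters bound by regulators of respiratory genes. RefSeq promoter windows of build GRCm38.p6, 250 bases before to 50 after a gene's start on the gene's strand, were held for 70 of the 86 genes. The genes without an entry were Atp5a1, Atp5mpl, Cox4i1, Cox4i2, Cox6a2, Cox6c, Cox8c, Cyc1, Ndufa2, Ndufa4l2, Ndufb9, Ndufs1, Sdhc, Uqcrb, Uqcrc2 and Uqcrq. The windows below were chosen for Atp5g3 and Sdhd, which hold the letters of the oestrogen-related receptors, for Cycs, which holds those of NRF1, and for Atp5md, which had the most positive change. They lie at chr2:73911277-73911576, chr9:50603800-50604099, chr6:50566520-50566819 and chr19:47090598-47090897, each on the minus strand. Capitals mark the matched letters, the oestrogen-related receptor letters in Atp5g3 and near the end of Sdhd, the ETS letters earlier in Sdhd and in Atp5md, and the NRF1 letters in Cycs, all of them as the reverse complement of the motifs spelled out below.
Atp5g3: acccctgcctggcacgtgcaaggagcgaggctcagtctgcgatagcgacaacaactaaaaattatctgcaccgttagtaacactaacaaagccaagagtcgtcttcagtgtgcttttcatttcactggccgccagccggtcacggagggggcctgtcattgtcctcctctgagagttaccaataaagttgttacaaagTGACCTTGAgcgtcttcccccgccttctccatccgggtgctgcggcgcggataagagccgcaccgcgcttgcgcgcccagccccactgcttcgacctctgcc
Sdhd: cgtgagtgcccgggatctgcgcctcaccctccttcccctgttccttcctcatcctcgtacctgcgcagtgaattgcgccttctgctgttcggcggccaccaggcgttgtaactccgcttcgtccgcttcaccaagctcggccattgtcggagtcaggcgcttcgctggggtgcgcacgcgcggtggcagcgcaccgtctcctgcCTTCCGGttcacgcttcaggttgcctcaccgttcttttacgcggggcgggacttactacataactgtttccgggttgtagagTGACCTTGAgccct
Cycs: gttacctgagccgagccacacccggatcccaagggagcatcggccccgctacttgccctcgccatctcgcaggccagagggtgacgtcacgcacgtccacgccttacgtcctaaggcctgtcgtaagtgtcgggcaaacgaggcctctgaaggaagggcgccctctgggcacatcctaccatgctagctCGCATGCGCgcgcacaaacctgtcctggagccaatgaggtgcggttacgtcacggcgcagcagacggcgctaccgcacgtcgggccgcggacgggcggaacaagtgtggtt
Atp5md: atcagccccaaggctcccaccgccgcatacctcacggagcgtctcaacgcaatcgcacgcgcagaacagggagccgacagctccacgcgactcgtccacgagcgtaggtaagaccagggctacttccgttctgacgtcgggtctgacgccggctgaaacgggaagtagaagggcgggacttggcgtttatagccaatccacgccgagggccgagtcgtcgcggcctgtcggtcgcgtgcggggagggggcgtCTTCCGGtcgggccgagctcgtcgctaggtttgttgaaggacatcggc

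Both strands of every window were searched for exact letters, so variant sites and sites outside the window would be missed. The letters GCGCATGCG of NRF1 were found in 9 of 70 subunit genes, or 12.9%, and in 2.71% of 15691 array genes with a window. The ETS letters CCGGAAG, bound by GABP, were found in 17, or 24.3%, and in 13.2% of all. The YY1 letters AAGATGGCG were found in 7, or 10% against 2.23%. The oestrogen-related receptor letters TCAAGGTCA were found in 2, or 2.86% against 0.351%, and the palindromic oestrogen response element, GGTCA and TGACC with 3 bases between, in 0 of 70 and in 8 of all genes. Different motifs overlapped in 0 of the windows, and the NRF1 letters lay on both strands, offset by 1 base, in 5 genes. These are descriptions of letters and not of binding.

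The median log2 changes of subunit genes with and without the letters were set side by side, with no test. They were 0.04 with and -0.02 without the NRF1 letters, 0.03 and -0.02 for ETS, and 0.03 and -0.02 for YY1. The genes that hold the oestrogen-related receptor letters, Atp5g3 and Sdhd, had log2 changes of -0.12 and -0.07. Atp5g3 read 8.91, 8.82 and 9.11 in Cont and 8.85, 8.78 and 8.85 in OVX, and Sdhd read 7.68, 7.43 and 7.83 in Cont and 7.499, 7.57 and 7.65 in OVX. In both genes the groups overlapped and Cont 3 was the highest array.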

How the data were processed

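Submandibular gland RNA of 3 Cont and 3 OVX mice was labelled with biotin and hybridised to Clariom S mouse arrays. The log2 values of 22206 probe sets deposited by the authors come from a joint SST-RMA normalization, per the paper. RMA and Affymetrix Power Tools stand in the submitters' processing notes, with no version in the sources used here. That the scale is log2 was inferred from the largest value, 13.06. Arrays have no read depth, and precision is limited by their number.

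A single symbol was listed for 19572 probe sets, and 2634 without a symbol were left out. The probe set with the highest mean was kept for 55 genes with several. The groups were compared with limma 3.58.1 under R 4.3.3 (lmFit, eBayes, no covariate), adjusting p-values over the 19572 probe sets by Benjamini-Hochberg. The step was also run on simulated data with independent noise for each gene. That setting does not hold the shifts shared between subunit genes described above. Intervals are at 95% and not adjusted. The methods' t-test was run in its equal-variance form. Named genes are the 5 most positive and 5 most negative subunit genes, the 3 with the smallest p in each complex, the isoform pairs, and up to 3 genes of each list. Other genes were named after their values were seen. The subunit genes and all lists were chosen with earlier results of these data known. Alternatives covered normalization, dim probe sets, variance model, array weights, replicate block, left-out arrays, test, call rule and member set.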

Additional observations from a re-analysis of the deposited data

How the results depend on the processing

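Under all 19 alternatives 0 subunit genes were higher and 0 lower in OVX, also with each array left out in turn. The 33 subunit genes named by the rule gave 528 values over the alternatives, of which 0 had an adjusted p under 0.05, and the smallest was 0.0617 for Cox7a2l with limma's trend and robust options. The sign changed in at least 1 alternative for 10 of them, in 9 only where an array was left out and in Cycs also under quantile normalization (-0.07), which moved Sdhb to -0.11. Quantile normalization moved the median log2 change of the subunit genes to -0.08, with all genes at -0.02. Leaving out arrays gave medians from -0.04 (without Cont 2) to 0.06 (without Cont 3).

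The count over all genes, 709, was 1104 with the trend and robust options, 79 by the methods' t-test, 7 by its Welch form and 382 to 561 with an array left out (428 without Cont 2, 382 without OVX 1, 455 without OVX 2 and 396 without OVX 3). The cause was not tested. The count of subunit gene intervals within 1.5-fold, a measure chosen after seeing the data, was 61 to 78 over the alternatives. With an array left out it was 61 to 66. The share over all genes was not computed under these alternatives.

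The labels do not say whether replicate numbers pair the mice. Deviations of same-numbered arrays correlated at 0.07, 0.01 and -0.04, and those of differently numbered arrays at -0.08 to 0.06. With 3 arrays per group these values cannot show whether mice were paired. With the replicate block 630 genes and 0 subunit genes passed. The isoform ratios were not run with a block, and with an array left out they ranged from -0.61 to 0.20 over the 8 pairs. Dim probe sets have no detection calls, which limits what can be said of Cox7b2 and other restricted isoforms.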
